A study of Mus musculus with 27 samples.

Results

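Gm4737, Irs4 and Arg1 are 3 genes whose read counts were higher in embryonic mouse pancreas mutated in the SD domain of Nkx2.2, a transcription factor, than in control pancreas. They were picked because of those higher values, so the embryonic difference is described below with no test, and the tests concern islets and neural progenitors, which played no part in the choice. All 3 genes were among 55536 listed in the embryonic table and among 39017 in the progenitor table. The islet table lists 26487 genes, of which 2 are Irs4 and Arg1. Gm4737 is not one of them and was not analysed in islets.

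RNA from whole E15.5 pancreas was sequenced in 3 control (wild-type) and 4 SDmut libraries. Islets at 8 weeks of age gave 2 control and 3 betaSDmut libraries, where the mutation was specific to beta cells. Islets at 4 weeks gave 2 control and 2 betaKO libraries. The zygosity of the mutant alleles and the driver of beta-cell specificity are not given in the sources used here. The labels call the molecule of the 4-week islets genomic DNA, but their columns hold gene counts like those of the 8-week islets. Neural progenitors were motor neuron progenitors made from mouse embryonic stem cells and collected on day 4 of differentiation. They were 3 untreated libraries of the iNkx2.2 line (pMN), 3 libraries of the same line given doxycycline at 1 µg/ml for about 16 h to induce FLAG-tagged wild-type Nkx2.2 (iNkx2.2), and 2 libraries of the iSDmut line induced in the same way, whose FLAG-tagged transgene carries the mutations of the SDmut mice. Each transgene was represented by 1 line, so line and transgene cannot be told apart. No untreated library of the iSDmut line is listed, so line and induction cannot be told apart in iSDmut against pMN. Doxycycline without a transgene was not sampled, so drug and transgene cannot be told apart either. Binding of Nkx2.2 was measured by ChIP-seq in MIN6, a mouse beta-cell line, in 2 replicates. The labels do not say that every library came from its own animal or culture, so the p-values below measure the spread between these libraries only.

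Libraries held 38447596 to 41840638 counts in the embryonic table, 12398041 to 32385406 in the islet table and 17757991 to 46840701 in the progenitor table. Nkx2-2 itself did not differ detectably in embryos (log2 fold change -0.10, SE 0.224), in betaSDmut islets (-0.10, SE 0.128) or in the islets labelled betaKO (-0.18, SE 0.237), so transcript level does not check those labels. In progenitors Nkx2-2 ranged from 5.40 to 11.6 CPM (counts per 1e+06 counts, scaled by TMM factors) in pMN. It was 343 to 378 CPM in iNkx2.2 and 245 to 248 CPM in iSDmut, without overlap (iSDmut against iNkx2.2, log2 fold change -0.53, SE 0.222). Transcript level and mutation therefore cannot be told apart in iSDmut against iNkx2.2. Summed CPM of 12 acinar markers was 13200 to 32500 in embryonic controls and 14500 to 40400 in SDmut. A list of islet endocrine markers summed to 1450 to 3290 and 932 to 1690 in the same groups, and to 237000 to 302000 in islets. Skeletal muscle markers stood apart in 2 embryonic libraries, control 3 (6170 CPM) and SDmut 2 (7190 CPM), against a lowest value of 67.1 CPM, and embryonic values are also given without them.

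Nkx2.2 is a homeodomain protein needed for the formation and identity of islet beta cells. Pancreas lacking it is known for an excess of ghrelin-producing endocrine cells in place of beta cells. The SD domain is a short conserved stretch outside the homeodomain of NK2 proteins. Irs4 encodes an insulin receptor substrate, a docking protein that passes signals from the insulin and insulin-like growth factor receptors to phosphatidylinositol 3-kinase. Its relatives Irs1 and Irs2 do the same work in most tissues. Arg1 encodes the cytosolic arginase, which splits arginine into ornithine and urea, completes the urea cycle in liver and is also made by some macrophages. The ornithine can be turned into polyamines, beginning with ornithine decarboxylase (Odc1). Arg2 is the mitochondrial arginase. Gm4737 is a retrogene, an intronless copy made from a processed transcript, of Ahcy. Ahcy encodes the enzyme that removes S-adenosylhomocysteine, the product left by methyltransferases.

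In mouse build GRCm38, Gm4737 (ENSMUSG00000048087) is a single exon at chr16:46152985-46155077 on the minus strand. Irs4 (ENSMUSG00000054667) has 2 exons at chrX:141710998-141725263 and Arg1 (ENSMUSG00000019987) has 8 exons at chr10:24915221-24927484, both on the minus strand. The transcript of Gm4737, 2093 bases long, was 99.7% identical to an Ahcy transcript over 2083 aligned bases, with 6 substitutions and no gaps. Ahcy lies on another chromosome, at chr2:155059310-155074497. Within the aligned bases, only reads that cover a difference can be assigned to one gene of the pair. For this reason the 4 substitutions in the coding part are shown. They are T524C, A539G, T1115C and T1133C, with the Gm4737 base first, the position counted from 1 at the 5′ end of its transcript, and the Ahcy base last. The capital marks the base that differs.
Gm4737 at 524: catccgaggtatTtctgaggagacc
Ahcy at 524: catccgaggtatCtctgaggagacc
Gm4737 at 539: tgaggagaccacAactggggtccac
Ahcy at 539: tgaggagaccacGactggggtccac
Gm4737 at 1115: cctgggttgtgcTatgggacacccc
Ahcy at 1115: cctgggttgtgcCatgggacacccc
Gm4737 at 1133: acaccccagcttTgtgatgagcaac
Ahcy at 1133: acaccccagcttCgtgatgagcaac
Of all 50-base windows of the Gm4737 transcript, 90.4% occurred unchanged in Ahcy, and of 100-base windows 82.6%. A processed pseudogene, Gm9826, was 99.2% identical over 1299 bases. How the authors' counting split reads among these copies is not given in the sources used here, so each count of Gm4737 is uncertain to that extent. The 5′ end of Irs4 is overlapped on the opposite strand by the antisense gene Gm15295, which shares 383 transcribed bases with it. The use of strand in counting is not given either.

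The regions before the start sites of Gm4737 and Irs4 are shown because both genes were higher in the same embryonic libraries. They are windows of 300 bases around the start, mostly before it, taken from RefSeq for build GRCm38.p6. A RefSeq promoter entry was found for 2 of the 3 genes, not for Arg1. The motif AAGTG, the core of NK2 homeodomain sites, was searched on both strands, as was TAAGTG, whose matches are all AAGTG matches too. Capitals mark AAGTG.
Gm4737 promoter, chr16:46155028-46155327, minus strand: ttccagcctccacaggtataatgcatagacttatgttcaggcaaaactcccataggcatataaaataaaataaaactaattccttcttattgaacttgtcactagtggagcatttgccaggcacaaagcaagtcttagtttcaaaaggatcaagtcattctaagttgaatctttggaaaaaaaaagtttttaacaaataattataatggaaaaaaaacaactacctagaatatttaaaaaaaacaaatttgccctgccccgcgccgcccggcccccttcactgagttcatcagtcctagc
Irs4 promoter, chrX:141725168-141725467, minus strand: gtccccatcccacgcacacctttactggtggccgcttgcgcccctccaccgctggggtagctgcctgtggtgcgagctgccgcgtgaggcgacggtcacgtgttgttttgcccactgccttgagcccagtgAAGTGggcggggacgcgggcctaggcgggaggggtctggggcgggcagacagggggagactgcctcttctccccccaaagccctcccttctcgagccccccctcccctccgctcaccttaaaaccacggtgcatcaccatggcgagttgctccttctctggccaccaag
The Irs4 window held 1 AAGTG and the Gm4737 window none. Of 32851 promoters of that length, 46.4% held AAGTG and 9.20% held TAAGTG.

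Irs4 was the receptor-signalling gene of the 3. Its levels were 4.97, 5.60 and 4.23 CPM in the embryonic controls and 19.7, 14.8, 28.9 and 23.3 CPM in SDmut. No SDmut library came down to a control level. On the log2 scale the difference was 2.13 (SE 0.250), and the ratio of mean CPM was 4.39. Irs1 (log2 fold change -0.48, SE 0.488) and Irs2 (0.14, SE 0.252) did not pass the test in the same libraries (edgeR's quasi-likelihood test, Benjamini-Hochberg adjusted p = 1 for both).

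Arg1 was the arginine-metabolism gene. It stood at 8.60, 7.87 and 5.45 CPM in the controls and at 20.2, 16.4, 29.2 and 21.1 CPM in SDmut. Again the groups did not overlap. Their log2 fold change was 1.57 (SE 0.246), with a ratio of mean CPM of 2.97. Arg2 (-0.09, SE 0.424) and Odc1 (0.04, SE 0.187) did not pass (adjusted p = 1 by edgeR for both).

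Gm4737 had the largest difference of the 3 genes. Its levels were 1.72, 1.97 and 2.39 CPM in the controls, from 71 to 92 counts, and 22.6, 19.1, 31.8 and 23.9 CPM in SDmut, from 805 to 1297 counts. This was a log2 fold change of 3.58 (SE 0.234), with a ratio of mean CPM of 12. Within SDmut, replicate 3 was the highest and replicate 2 the lowest library for all 3 genes. That order was not particular to them. The summed acinar (14500 to 40400 CPM), islet endocrine (932 to 1690 CPM), duct and arginine lists shared it. The mesenchyme, skeletal muscle and insulin receptor substrate pathway lists had the opposite order, with replicate 2 highest and replicate 3 lowest. In the authors' deposited table of the same contrast, 26 genes passed an adjusted p of 0.05, 10 of them higher in SDmut. Gm4737, Irs4 and Arg1 ranked 2, 4 and 7 by fold change among those, with log2 fold changes of 3.53, 2.09 and 1.54 there.

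**Figure D1:**
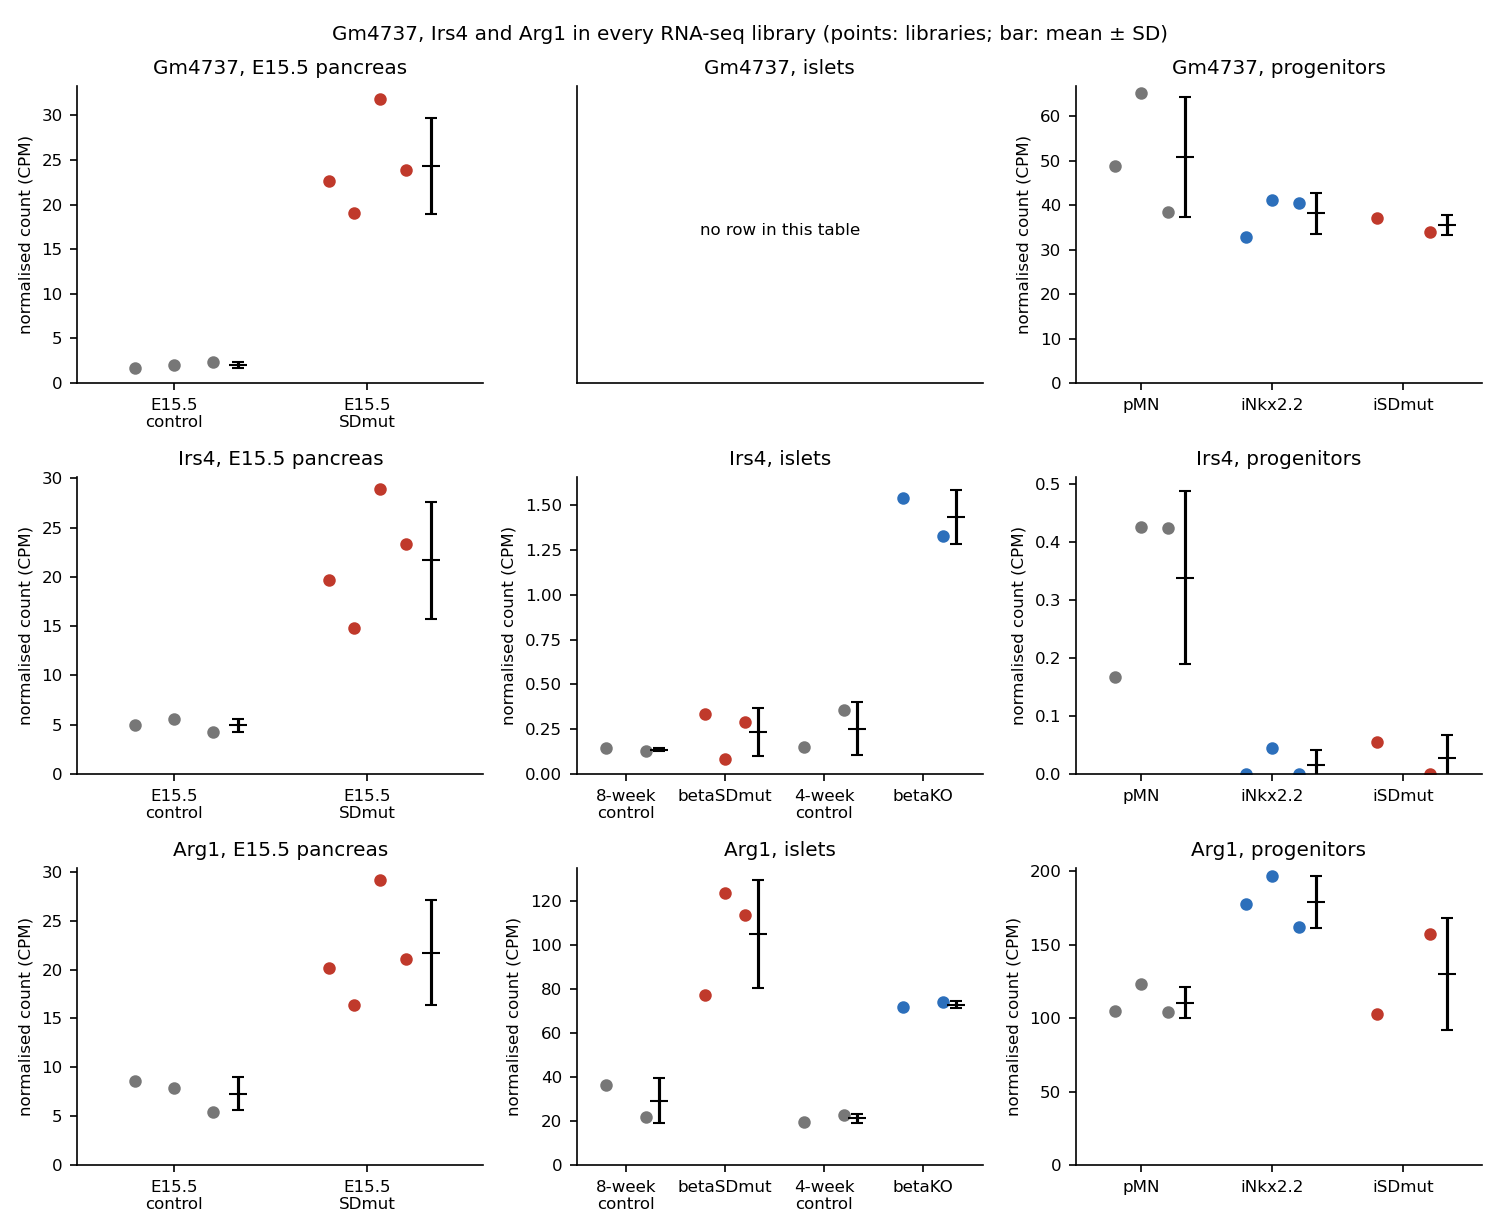
Levels of Gm4737, Irs4 and Arg1 in each library (points; linear vertical axes in CPM that differ between panels), with the mean and SD of each group as a bar beside the points, drawn down to 0 only. In embryos the SDmut libraries lie above all controls for each gene. In islets both mutant groups lie above their controls for Arg1. In progenitors Arg1 is higher in the 3 iNkx2.2 libraries than in pMN, and Gm4737 is not.

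Across all genes of the embryonic contrast, edgeR called 1 of 18723 (0.00534%) and DESeq2 25 of 18463 (0.135%) at an adjusted p under 0.05. Since the 3 genes were selected from this contrast, nothing is read from how many of them those calls include. As a description, without the muscle-rich libraries control 3 and SDmut 2 the log2 fold changes were 3.82 for Gm4737, 2.18 for Irs4 and 1.51 for Arg1. Leaving out each library in turn gave 3.43 to 3.72, 1.97 to 2.28 and 1.40 to 1.71. Irs4 is X-linked, and Xist was high in 1 of 3 controls and 2 of 4 SDmut libraries. With sex as a covariate the log2 fold change of Irs4 was 2.14.

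Arg1 is abundant in liver and in some macrophages. Summed CPM of 12 hepatocyte markers was 432 to 1270 in controls and 455 to 2440 in SDmut. SDmut 3, the library with the highest Arg1, had the lowest hepatocyte sum of its group, and no hepatocyte marker was at 0 in either group. Macrophage markers summed to 238 to 310 CPM in controls and 238 to 516 in SDmut, with Retnla at 0 in both. SDmut 1 had the highest sum for both lists. None of the 12 hepatocyte and 11 macrophage markers tested passed (0 at an unadjusted p under 0.05 and 0 by DESeq2). The median log2 fold change was 0.88 for the hepatocyte list and 0.23 for the macrophage list, against 0.01 for all genes. The part of these markers in the Arg1 values was not tested beyond these measurements. In whole tissue, more cells of a type and more RNA per cell cannot be told apart.

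**Figure D2:**
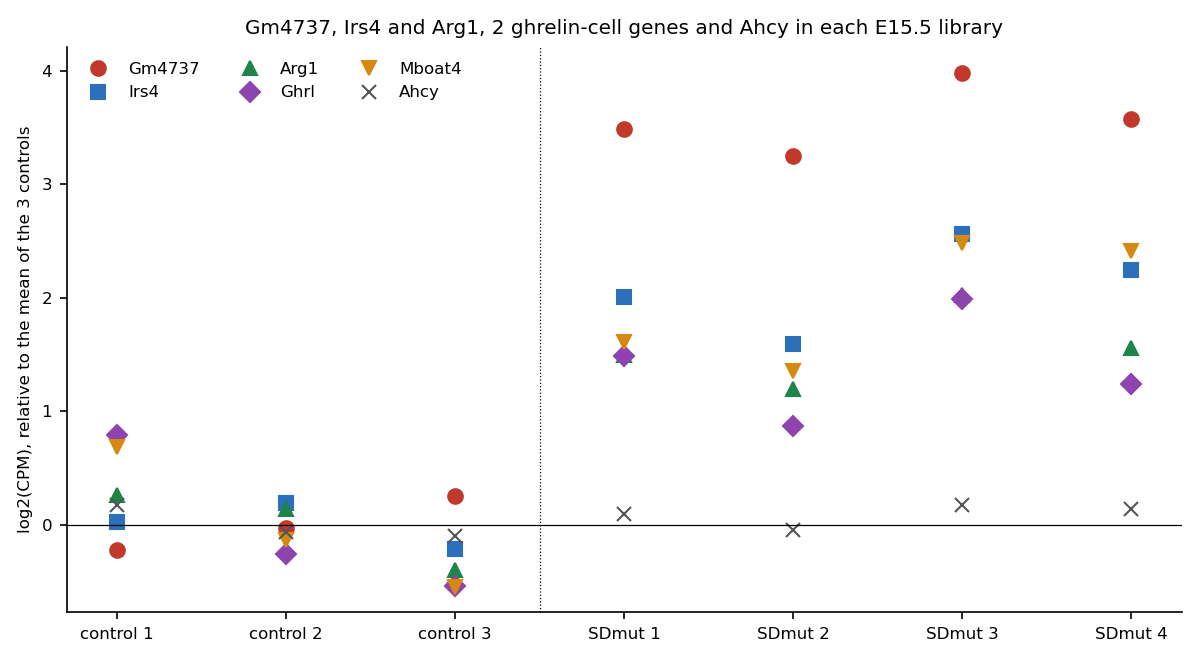
Level of each gene in the 7 embryonic libraries (horizontal axis) as log2 CPM relative to the mean of the 3 controls (vertical axis). SDmut 3 is the highest library for Gm4737, Irs4, Arg1, Ghrl and Mboat4, and also for Ahcy, which stays between 144 and 175 CPM.

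Ahcy, the parent gene of Gm4737, stood at 174, 148 and 144 CPM in controls and 165, 150, 175 and 170 CPM in SDmut. These groups overlapped, with a log2 fold change of 0.08 (SE 0.0992, adjusted p = 1 by edgeR). The comparison with Ahcy was added after the values had been seen. Gm4737 took 1.31% ± 0.327 (SD, n = 3) of the summed Gm4737 and Ahcy CPM in controls and 12.8% ± 1.82 (SD, n = 4) in SDmut. The sum itself was 158 ± 15.9 CPM (SD, n = 3) and 189 ± 15.8 CPM (SD, n = 4). Counted as 1 feature, the pair had a log2 fold change of 0.26 (SE 0.105). In progenitors the share was several times larger, from 33.9% to 40.3% over all 8 libraries. Its means there were 37.1% ± 3.2 for the pMN libraries (SD, n = 3), 37.4% ± 1.96 after induction of iNkx2.2 (SD, n = 3) and 35.6% ± 0.212 after that of iSDmut (SD, n = 2). Whether read assignment differed between the tables was not tested.

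**Figure D3:**
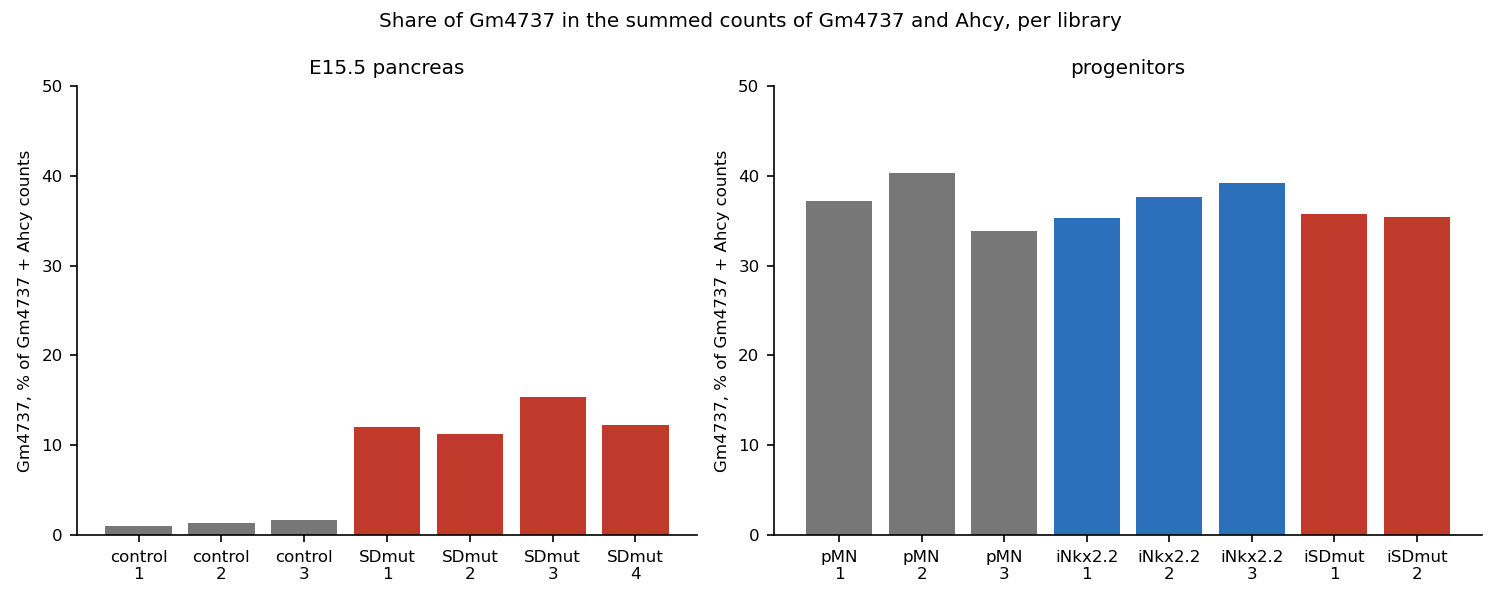
Share of Gm4737 in the summed counts of Gm4737 and Ahcy (vertical axis, percent), with 1 bar for each embryonic and progenitor library. Embryonic controls lie between 0.977% and 1.63%, embryonic SDmut between 11.3% and 15.4%, and progenitors between 33.9% and 40.3%.

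The ghrelin genes were examined beside the 3 genes because ghrelin cells are the cells known to increase when Nkx2.2 is lost. Ghrl, which encodes the hormone, stood at 45.3, 21.9 and 18.0 CPM in controls and 73.3, 47.9, 104 and 61.7 CPM in SDmut. Each SDmut library was above each control, but the log2 fold change of 1.34 (SE 0.386) did not pass the test (unadjusted p = 0.00951, adjusted p = 1 by edgeR). Mboat4, the acyltransferase that activates ghrelin, stood at 3.05, 1.73 and 1.30 CPM in controls and 5.81, 4.85, 10.6 and 10.1 CPM in SDmut. Its log2 fold change of 1.95 (SE 0.424) did not pass in edgeR (adjusted p = 1) and did in DESeq2 (adjusted p = 0.00321). Over its alternatives the adjusted p ran from 0.00321 to 1. The authors' deposited table of this contrast calls Mboat4 higher (log2 fold change 1.76) and does not call Ghrl (0.22). Of a list of 7 ghrelin-cell genes that leaves out Irs4 and Arg1, none was called (4 at an unadjusted p under 0.05 and 1 higher by DESeq2). Over all genes, 475 of 18723 were at an unadjusted p under 0.05 by edgeR, and DESeq2 called 25 of 18463 (0.135%). The median log2 fold change of the list was 0.28 against 0.01 for all genes. The summed CPM of the list was 345 to 493 in controls and 390 to 523 in SDmut.

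In the embryonic contrast edgeR called 1 of 18723 genes and none of 23 tested genes of the islet endocrine list. The authors' deposited table of that contrast calls Ins2 (log2 fold change -4.40) and Ins1 (-3.03) of that list. A gene or list without a call is therefore not shown to be unchanged. None of 26 genes of the insulin receptor substrate pathway was called in embryos (2 at an unadjusted p under 0.05, 0 by DESeq2), with a median log2 fold change of -0.10. None of 27 other genes of arginine, urea cycle and polyamine metabolism was called (0 at an unadjusted p under 0.05, 0 by DESeq2), with a median of 0.12. The nearest coding neighbours did not pass either. They were Cd96 (log2 fold change -0.33) and Nectin3 (-0.17) around Gm4737, Col4a5 (-0.09) beside Irs4, and Med23 (-0.02), whose end lies 1540 bases from that of Arg1. Adjusted p was 1 for all 4 by edgeR. The non-coding gene Gm36172 begins 135 bases from the start of Arg1 and is transcribed away from it. It held 1 to 3 counts in controls and 2 to 20 in SDmut (log2 fold change 2.55, SE 0.859, unadjusted p = 0.0193, adjusted p = 1 by edgeR).

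The genes with the most similar profile over the 7 embryonic libraries were listed among 15327 with a mean of at least 1 CPM, as a description. These correlations span both groups, so any gene that differs between the groups scores high. Irs4 was among the 5 genes most like Gm4737 (Pearson r = 0.980), after Pex13 (0.984). Arg1 was among the 5 most like Irs4 (0.986), and Irs4 the most like Arg1. Mboat4 was among the 5 most like Arg1 (0.965), as was Pla2g1b (0.978), an acinar phospholipase. Lrrtm3, a synaptic adhesion protein gene, was among the 5 most like Gm4737 (0.957).

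Whether Arg1 was also higher in adult islets was asked first at 8 weeks, where the SD mutation was specific to beta cells. Arg1 was higher in betaSDmut islets. The controls stood at 36.5 and 22.0 CPM and the betaSDmut islets at 77.4, 124 and 114 CPM, so the lowest mutant library was above the highest control. The log2 fold change was 1.85 (SE 0.303, 95% interval 1.25 to 2.44), which passed edgeR's quasi-likelihood test (Benjamini-Hochberg adjusted p = 0.0271). In that contrast 1224 of 15413 genes were called, 7.94%, with 4.07% higher and 3.87% lower. An exact permutation test of the 5 libraries gave p = 0.1, the smallest it allows. The call was lost (adjusted p above 0.05) without 8-week control 1 (0.104), control 2 (0.189), betaSDmut 2 (0.0860) or betaSDmut 3 (0.0686), with log2 fold changes from 1.53 to 2.25, and adjusted p over all alternatives ran from 7.15e-10 to 0.225. With sex as a covariate (Xist was high in betaSDmut 1 only among these 5 libraries) it was 2.03 with an adjusted p of 0.0210 in edgeR.

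In islets labelled betaKO at 4 weeks, Arg1 was higher too. It stood at 19.7 and 22.7 CPM in controls and at 71.9 and 74.2 CPM in betaKO. The 4 libraries fell into 2 separate pairs of close values. The log2 fold change was 1.79 (SE 0.111, 95% interval 1.57 to 2.01, adjusted p = 0.0147 by edgeR). Here edgeR called 233 of 14942 genes, 1.56%, with 0.81% higher and 0.75% lower, and DESeq2 called 5.15%. The exact permutation test could not go below p = 0.333. Without 4-week control 1 the change was 1.69 (adjusted p = 0.0609) and without control 2 it was 1.89 (0.0527), so the call was lost without either control. Xist was high in 4-week control 1 alone of these 4 libraries, so the fit without it is also the one among libraries with low Xist. Over all alternatives adjusted p ran from 3.67e-27 to 0.0609. The betaKO and betaSDmut effects on Arg1 did not differ detectably. The models also differed in age, so in this and later differences of effects mutation and age cannot be told apart. The betaSDmut effect minus the betaKO effect was 0.06 (SE 0.374, 95% interval -0.67 to 0.79, adjusted p = 0.967 by edgeR), in a contrast where 194 of 15995 genes (1.21%) were called.

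In the authors' deposited tables Arg1 was called higher in betaSDmut islets (log2 fold change 1.86). In their deposited table that joins both models it was called in betaKO (1.61) and in betaSDmut (2.08), and betaKO against betaSDmut (-0.46, lower in betaKO) was not called. Per transcript length, the authors' FPKM of Arg1 was 28.8 ± 9.97 (SD, n = 2) in 8-week controls, 103 ± 27.1 (SD, n = 3) in betaSDmut, 21.6 ± 1.84 (SD, n = 2) in 4-week controls and 67.7 ± 5.23 (SD, n = 2) in betaKO. Arg2 was far lower on that scale, with group means of 0.124 to 0.273 FPKM outside betaKO. In betaKO the 2 libraries had 0.499 and 22.5 FPKM of Arg2, and the log2 fold change of 4.68 (SE 2.03) did not pass (adjusted p = 0.434 by edgeR). In the same libraries, betaKO 1 and betaKO 2, markers of spleen, stomach and gut summed to 0.651 and 270 CPM, and their part in the Arg2 values was not tested. Without betaKO 1 the change was 5.64 (adjusted p = 0.00355), a fit on betaKO 2 alone in which the spread came from the 2 controls.

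Markers of other cells were set beside the islet values of Arg1. Hepatocyte markers summed to 32.7 to 36.1 CPM in 8-week controls and 21.7 to 24.7 CPM in betaSDmut. Fga, Fgg and Ahsg were at 0 in those controls and Fgg in betaSDmut. Of 6 hepatocyte markers tested none was called, with 2 lower by DESeq2. At an unadjusted p under 0.05 by edgeR were 3 of them and 3958 of all 15413 genes. In the 4-week islets the sums were 29.7 to 37.1 CPM in controls, and 52.8 and 440 CPM in betaKO 1 and 2. Of the 6 hepatocyte markers tested there 2 rose, Serpina1a and Ambp, where 0.81% of all genes rose. Fga was at 0 in both 4-week groups and Fgg in the controls. Macrophage markers summed to 89.5 to 91.8 and 93.9 to 182 CPM at 8 weeks, and to 115 to 152 and 64.8 to 91.2 CPM at 4 weeks, in control and mutant islets. Retnla was at 0 in both 8-week groups. In betaSDmut, where 4.07% of all genes rose and 3.87% fell, 1 of 10 macrophage markers tested rose and 3 fell. None of 12 was called in betaKO (1 at an unadjusted p under 0.05, 1 lower by DESeq2). Acinar markers ranged from 614 CPM in betaSDmut 1 to 22100 CPM in betaKO 1, and the part of hepatocyte, macrophage and acinar transcripts in the islet Arg1 values was not tested.

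**Figure D4:**
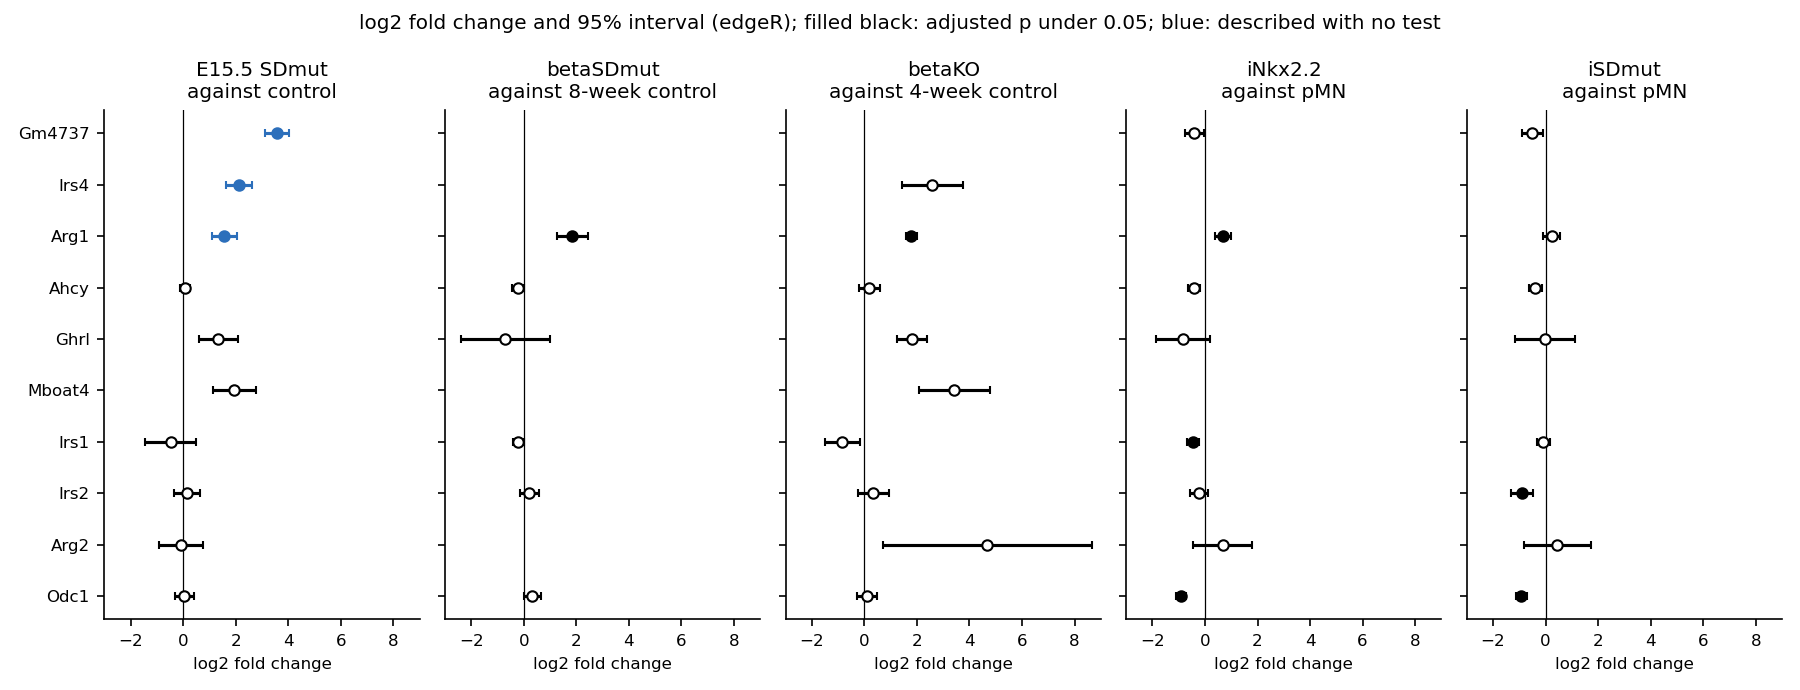
Log2 fold changes (horizontal axis) of the 3 genes and of 7 related genes in each comparison, with 95% intervals as bars. Filled black points passed edgeR's test, open ones did not, blue ones chose the genes and were not tested, and a gene with no point was not tested there. The Arg1 intervals of both islet comparisons lie above 0, from 1.25 to 2.44 and from 1.57 to 2.01.

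Irs4 was hardly detected in islets. It had 3 and 3 counts in 8-week controls and 8, 2 and 8 in betaSDmut, too few for the model (exact permutation p = 0.4, smallest possible 0.1). At this depth no difference was detectable. In 4-week islets it had 5 and 6 counts in controls and 26 and 17 in betaKO, or 0.149 and 0.358 against 1.54 and 1.33 CPM. The log2 fold change of 2.59 (SE 0.598) did not pass (unadjusted p = 0.00561, adjusted p = 0.125 by edgeR and 0.127 by DESeq2). The difference of the Irs4 effects between the models was -1.80 (SE 1.01, 95% interval -3.79 to 0.18, adjusted p = 0.476). On the authors' FPKM scale Irs4 was 0.0287 to 0.218 in the group means, against 6.74 to 12.7 for Irs2 and 1.46 to 3.40 for Irs1.

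In betaSDmut islets 4.07% of all genes rose and 3.87% fell. Of the other insulin receptor substrate pathway genes, 0 of 26 rose and 1 fell there. That was Igf1r, the receptor for insulin-like growth factor 1 (log2 fold change -0.84, adjusted p = 0.0112 by edgeR), a call lost without either 8-week control (0.120 and 0.139). None of 26 was called in betaKO (6 at an unadjusted p under 0.05, 3 lower by DESeq2). Of all 14942 genes tested there, edgeR called 1.56%, 2275 had an unadjusted p under 0.05, and DESeq2 called 366 lower. Irs1 and Irs2 did not pass in either model. Of 21 arginine, urea cycle and polyamine genes tested in betaSDmut islets 2 rose and 1 fell. Pycr1, of proline synthesis, rose (1.23, adjusted p = 0.0149), as did the spermine synthase gene Sms (0.65, adjusted p = 0.0131), and the cationic amino acid transporter gene Slc7a2 fell (-0.64, adjusted p = 0.0256, edgeR). Each of these 3 calls was lost without either 8-week control, and those of Pycr1 and Slc7a2 also without betaSDmut 2. Odc1 did not pass (0.33, adjusted p = 0.303 in edgeR; 0.49 and 0.0333 without betaSDmut 3). In betaKO islets none of 22 was called (3 at an unadjusted p under 0.05, 0 by DESeq2).

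Ghrl ranged from 0.333 to 26.9 CPM in islets. Its means on the authors' FPKM scale were 5.23 in 8-week controls, 3.25 in betaSDmut, 23.6 in 4-week controls and 74.8 in betaKO. The authors' deposited table of both models calls Ghrl higher in betaKO (log2 fold change 2.68) and in betaKO against betaSDmut (4.90). It does not call Ghrl in betaSDmut (-2.22). In 8-week islets Ghrl stood at 1.38 and 1.91 CPM in controls and 0.333, 0.413 and 2.25 CPM in betaSDmut, a log2 fold change of -0.70 (adjusted p = 0.651 by edgeR). Without betaSDmut 3, the library with 2.25 CPM, it was -2.13 (adjusted p = 0.0335). In 4-week islets Ghrl had 194 and 109 counts in controls and 454 and 198 in betaKO, and both betaKO libraries were above the higher control level of 6.51 CPM. The change was 1.80 (adjusted p = 0.0681 by edgeR, 1.40e-05 by DESeq2). Fits on 1 betaKO library alone, in which the spread came from the 2 controls, gave 1.34 without betaKO 1 (0.0400) and 2.14 without betaKO 2 (0.0251). The difference of the Ghrl effects was -2.48 (adjusted p = 0.337 by edgeR), and without betaSDmut 3 it was -3.92 (0.0155). Mboat4 had 2 and 6 counts in 8-week controls against 3, 8 and 6 in betaSDmut, and 8 and 1 counts in 4-week controls against 40 and 17 in betaKO (log2 fold change 3.42, adjusted p = 0.0981 by edgeR, 0.0195 by DESeq2).

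Of all genes, 4.07% rose and 3.87% fell in betaSDmut islets, and 0.81% rose and 0.75% fell in betaKO. In betaKO 2275 of 14942 genes had an unadjusted p under 0.05, and DESeq2 called 404 higher. Of the ghrelin-cell list, 1 of 6 tested genes rose and 2 fell in betaSDmut islets. In betaKO 1 of 7 rose and none fell (5 at an unadjusted p under 0.05, 4 higher by DESeq2). The one that rose in both was Gm11837. It stood at 2.58 and 2.82 CPM in 8-week controls and 22.5, 20.1 and 17.7 CPM in betaSDmut (log2 fold change 2.89, adjusted p = 0.00114 by edgeR). At 4 weeks it was 3.42 and 3.52 CPM in controls and 14.9 and 14.8 CPM in betaKO (2.10, adjusted p = 0.0224). The 4-week call was lost without 4-week control 1 (0.107) or 2 (0.116). Anpep, an aminopeptidase gene, and Frzb, a Wnt antagonist gene, fell in betaSDmut (-1.79 and -0.49, adjusted p = 0.00741 and 0.0323), calls that were lost without either 8-week control, and for Frzb also without betaSDmut 2. Lrrtm3, one of the genes most like Gm4737 in embryos, rose in betaSDmut islets (2.92, SE 0.266, adjusted p = 0.00497 by edgeR, 0.0706 and 0.0729 without either 8-week control). In betaKO it was 0.99 (SE 0.387, adjusted p = 0.318).

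In neural progenitors the question was whether adding Nkx2.2, wild-type or mutant, to cells with little of it moved the 3 genes. Arg1 was higher with wild-type Nkx2.2 than without it. It stood at 105, 123 and 104 CPM in pMN and at 178, 197 and 162 CPM in iNkx2.2. All 3 induced libraries were above all 3 untreated ones. The log2 fold change was 0.69 (SE 0.154, adjusted p = 0.0248 by edgeR), in a contrast where 1486 of 15653 genes were called, 9.49%, with 4.71% higher and 4.78% lower. In a fit that blocked on replicate number the change was again 0.69 (adjusted p = 0.00106), and 4629 genes were called. Within sequencing lane 2 of the titles it was 0.74 (adjusted p = 0.0259). The call was lost without pMN 1 (adjusted p = 0.106), pMN 3 (0.0551), iNkx2.2 1 (0.0865) or iNkx2.2 2 (0.0700), with log2 fold changes from 0.62 to 0.78 over all fits that left out 1 library.

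The 2 iSDmut libraries differed from each other in Arg1, at 103 and 157 CPM, one among the pMN values and one near the lowest iNkx2.2 value. Against pMN the log2 fold change was 0.23 (SE 0.172, 95% interval -0.10 to 0.57, adjusted p = 0.493 by edgeR; 554 genes called, 3.54%, with 1.9% higher and 1.64% lower). Against iNkx2.2 it was -0.46 (SE 0.174, adjusted p = 0.320; 44 genes called, 0.281%). The libraries came from different sequencing lanes. Without iSDmut 2 the values were -0.10 against pMN and -0.80 against iNkx2.2 (adjusted p = 0.0415 for the latter), and within lane 2 they were -0.12 and -0.87 (0.0550 for the latter). In the authors' deposited table Arg1 was called for iNkx2.2 against pMN (0.73) and not for iSDmut against pMN (0.13) or iNkx2.2 against iSDmut (0.60). Hepatocyte markers summed to at most 16.2 CPM and macrophage markers to at most 6.10 CPM in any progenitor library. On the authors' FPKM scale Arg1 was 46.4 ± 2.76 without induction (SD, n = 3), 79.8 ± 6.75 with iNkx2.2 induced (SD, n = 3) and 55.5 ± 16.6 with iSDmut induced (SD, n = 2).

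Gm4737 was not higher in induced progenitors. It stood at 48.8, 65.2 and 38.4 CPM in pMN, 32.9, 41.2 and 40.4 CPM in iNkx2.2, and 37.1 and 34.0 CPM in iSDmut. The induced groups overlapped the lowest pMN library or lay just below it. Log2 fold changes were -0.41 (SE 0.181, adjusted p = 0.190) and -0.51 (SE 0.206, adjusted p = 0.202) against pMN, and -0.10 (SE 0.203, adjusted p = 0.862) between the induced groups, all by edgeR. Ahcy had changes of -0.41 (adjusted p = 0.0523) and -0.39 (adjusted p = 0.128) against pMN by edgeR. Ahcy passed in both with the replicate block (-0.40, adjusted p = 0.00802, and -0.43, 0.0208), and in iNkx2.2 also by DESeq2 (-0.40, 0.0157) and without pMN 3 (-0.47, 0.0363). In FPKM both genes were at like levels, with pMN means of 18.6 for Gm4737 and 18.5 for Ahcy. Not scaled by length, the pMN means were 50.8 CPM for Gm4737 and 84.6 CPM for Ahcy. How reads shared by the copies were split is not given for either measure.

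Irs4 was close to absent in progenitors, with 3, 7 and 10 counts in pMN, 0, 1 and 0 in iNkx2.2, and 1 and 0 in iSDmut. The 3 pMN libraries were above all induced ones. Those counts were too few for the model (exact permutation p = 0.1 for iNkx2.2 and 0.2 for iSDmut against pMN, where 0.1 is the smallest possible). Per library total, the summed count of iNkx2.2 was 0.0319 of that of pMN (1 against 20 counts, 95% interval 0.000769 to 0.199, counting error only), and that of iSDmut was 0.0728 (1 against 20, 0.00176 to 0.455). Without the filter on low counts edgeR gave -4.42 for iNkx2.2 (adjusted p = 0.0149) and -3.54 for iSDmut (adjusted p = 0.154).

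Around Arg1, several genes of arginine uptake and polyamine synthesis were lower in the induced libraries than in pMN. Of 22 tested genes of the list, 2 rose and 5 fell in iNkx2.2 (median log2 fold change -0.23 against -0.01 for all genes, of which 4.71% rose and 4.78% fell). In iSDmut 1 rose and 4 fell (median -0.16 against -0.01 for all genes, of which 1.9% rose and 1.64% fell). Odc1, the first enzyme of polyamine synthesis, fell by 0.90 in iNkx2.2 (adjusted p = 0.00102) and by 0.92 in iSDmut (0.00342). The arginine transporter gene Slc7a1 fell as well (-1.31, 0.000438, and -1.35, 0.00180). The spermidine synthase gene Srm (-0.69, 0.03 and -0.87, 0.0364) and Aldh18a1, which makes a precursor of proline and ornithine (-0.60, 0.00734 and -0.52, 0.0386), fell too. Sms fell in iNkx2.2 (-0.84, 0.00250) and not detectably in iSDmut (-0.00, 0.993). Argininosuccinate lyase, Asl, which makes arginine, rose (0.61, 0.00648 and 1.09, 0.00140), as did Ddah2, which breaks down methylated arginines, in iNkx2.2 (0.43, 0.0397). All are log2 fold changes against pMN with adjusted p by edgeR, and both induced groups share the pMN libraries. Odc1, Slc7a1, Sms and Asl kept their iNkx2.2 calls whichever library was left out. The iNkx2.2 call of Srm was lost without pMN 1, pMN 2, iNkx2.2 1 or iNkx2.2 2, its iSDmut call without pMN 1, 2 or 3, iNkx2.2 2, iSDmut 1 or iSDmut 2, and the iSDmut call of Aldh18a1 without any of 7 of the 8 libraries. Within lane 2 the iNkx2.2 calls of Srm (0.0518) and Ddah2 (0.119) and the iSDmut calls of Odc1 (0.0525), Srm (0.146) and Aldh18a1 (0.147) were lost. The Ddah2 call was also lost without pMN 2 or 3 or any iNkx2.2 library.

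Among 27 insulin receptor substrate pathway genes tested, 3 rose and 1 fell in iNkx2.2, and 1 rose and 1 fell in iSDmut. Of all genes, 4.71% rose and 4.78% fell in iNkx2.2, and 1.9% rose and 1.64% fell in iSDmut. Pik3r3, a regulatory subunit of phosphatidylinositol 3-kinase, rose in both (0.98, adjusted p = 0.000253, and 1.13, 0.000590), whichever library was left out. Pik3cd, a catalytic subunit (1.18, 0.0329), and the adaptor Shc1 (0.90, 0.0181) rose in iNkx2.2, and both calls were lost without pMN 1 or 2 or iNkx2.2 1 or 3. Irs1 fell in iNkx2.2 (-0.46, 0.0327), a call lost without any 1 of the 6 libraries of that comparison. Irs2 fell in iSDmut (-0.90, 0.0476), a call lost without any of 7 of the 8 libraries.

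The position of Nkx2.2 in MIN6 beta cells relative to the 3 genes was read from the authors' final set of 6473 sites. The site nearest to the Arg1 start, centred at chr10:24958907, lay 31.4 kb upstream between genes, and the authors' deposited table of bound genes joins it to Arg1. It held 159 and 120 reads in the 2 replicates. Its mean of 7.67 log2 CPM was above that of 83.2% of the final sites, whose median was 6.82. A neighbouring event, 31.7 kb upstream, is so close that the 2 events may share reads, which was not tested. Of 21755 protein-coding start sites 17.5% had a final site as near, and the median distance was 137 kb. The 300 bases around the centre are shown for this reason, from GRCm38, plus strand, with AAGTG in capitals on either strand.
Nkx2.2 site upstream of Arg1, chr10:24958757-24959056: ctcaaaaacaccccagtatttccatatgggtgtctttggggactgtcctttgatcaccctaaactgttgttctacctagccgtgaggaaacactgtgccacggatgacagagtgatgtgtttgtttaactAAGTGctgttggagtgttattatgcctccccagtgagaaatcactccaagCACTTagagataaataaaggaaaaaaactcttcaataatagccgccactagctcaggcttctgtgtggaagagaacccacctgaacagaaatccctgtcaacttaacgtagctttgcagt
Both matches in that window extend to TAAGTG. Of the final sites, 53.5% held AAGTG and 15.9% TAAGTG in 300 bases. A match is a sequence description and does not show binding to that base.

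**Figure D5:**
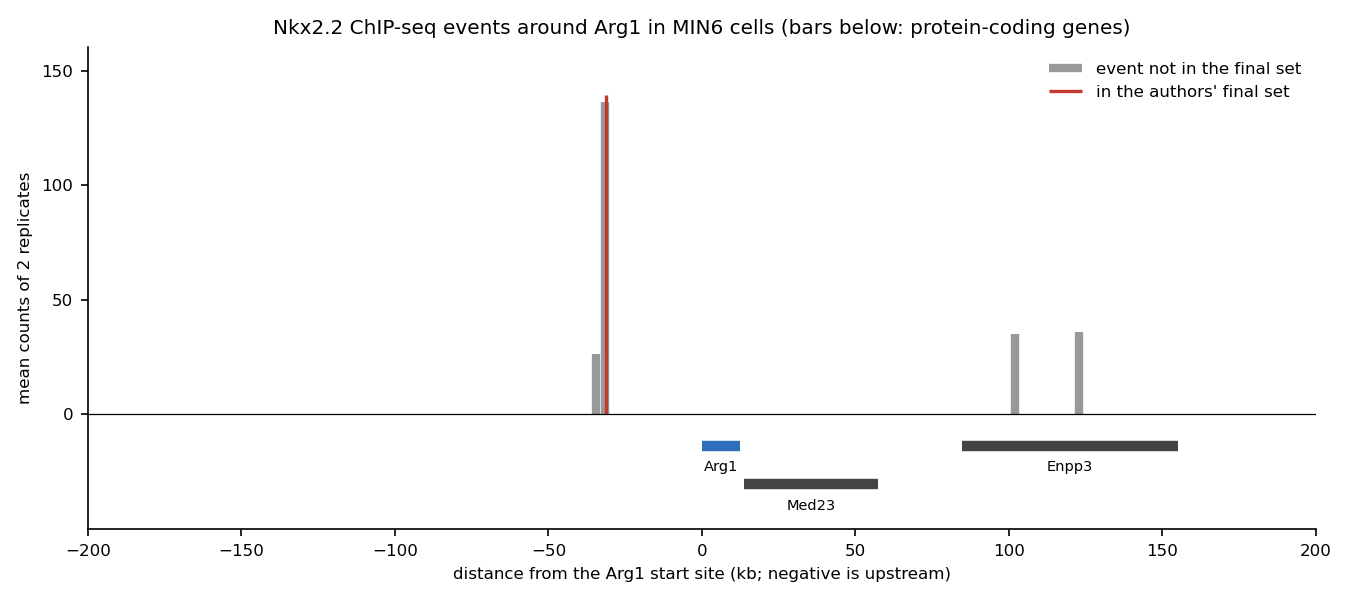
Nkx2.2 ChIP events around Arg1 (horizontal axis, kb from the Arg1 start, negative upstream; vertical axis, mean counts of the 2 replicates; event width not to scale), with protein-coding genes as bars below. The event 31.4 kb upstream, with 159 and 120 reads, and its neighbour at 31.7 kb stand above the 3 others drawn, which had at most 41 reads in a replicate.

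The nearest final site to Gm4737 lay 77 kb upstream, a distance that 34.6% of coding start sites share or beat. For Irs4 it lay 1001 kb upstream, in an intron of Tmem164, and 92.6% of coding start sites had one as near. The sites were measured in a beta-cell line and not in embryonic pancreas or progenitors.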

How the data were processed

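The authors deposited raw counts per gene for all RNA libraries, per the description file, with FPKM for islets and progenitors and result tables that give log2 fold changes with p-values and calls. Their ChIP-seq files, also deposited, hold counts at events and log2 CPM at final sites. The submitters' processing notes name STAR, Cufflinks, DESeq2, edgeR 3.20.9, limma 3.34.9, bedtools 2.17.0 and mm10, with no role for each. The counting rule and use of strand are not given in the sources used here. The 3 genes, the gene lists and the named neighbours (both nearest genes on each side, list genes past the threshold, and the 5 most correlated genes) were chosen with earlier results of these data known.

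The main test of counts was that of edgeR 4.0.16 (R 4.3.3; TMM, filterByExpr with a minimum count of 10, robust quasi-likelihood test), with Benjamini-Hochberg adjustment over all genes tested and a threshold of 0.05. Standard errors are the absolute log2 fold change over the square root of F, and 95% intervals are 1.96 standard errors wide on each side. Each embryonic or islet comparison used its own groups, and the progenitor comparisons 1 model of 3 groups. CPM in a table were TMM-scaled over all its libraries. DESeq2 1.42.0 and other scalings, filters, covariates, blocks and fits without 1 library were alternatives. Where leaving out a library left 1 in a group, that library was assumed to vary like the other groups. Summing Gm4737 with Ahcy and fits within lane 2 were added after the data were seen. The fit was tested on simulated data. Transcripts were compared with blastn 2.17.0+ against GENCODE M21. Same-numbered pMN and iNkx2.2 libraries deviated together (correlations 0.674, 0.697 and 0.715). The main fits did not use this pairing, and the replicate block was an alternative to them. Embryonic titles carry a number, which was 8640, 8640 and 8627 for controls 1 to 3. For SDmut 1 to 4 it was 8640, 8640, 8627 and 8351, and no control has 8351. The labels do not say what the number stands for, and it was used only as an alternative block. In 1 deposited table, 1 column of per-sample values matched no sample and was not used. The input library was not used. Sequencing depth limits Irs4, which had 10 counts or fewer in each progenitor library.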

Additional observations from a re-analysis of the deposited data

Results flagged for a closer look

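The difference between the betaSDmut and betaKO effects was tested over the 9 islet libraries with edgeR's quasi-likelihood test, and 2 of 26 insulin receptor substrate pathway genes and 2 of 23 arginine list genes passed (Benjamini-Hochberg adjusted p), where 194 of all 15995 genes (1.21%) did. Age differed between the models, 8 weeks for betaSDmut and 4 weeks for betaKO, and cannot be told apart from the mutation. Igf1r, the receptor for insulin-like growth factor 1, had a difference (betaSDmut effect minus betaKO effect) of -1.11 on the log2 scale (adjusted p = 0.0243). For Akt1, a kinase of the same pathway, the difference was 0.60 (adjusted p = 0.0428). For the cationic amino acid transporter gene Slc7a2 it was -0.90 (adjusted p = 0.0342), and for the spermine synthase gene Sms it was 0.75 (adjusted p = 0.0324). Of 14 alternatives these genes were called in 8, 6, 7 and 6, and each call was lost without either 8-week control, either 4-week control, betaSDmut 2 or betaKO 2, that of Akt1 and Sms also without betaSDmut 3 or betaKO 1. In progenitors Sms was 0.84 higher on the log2 scale in iSDmut than in iNkx2.2 (adjusted p = 0.0350 by edgeR, called in 10 of 15 alternatives). That call was lost without pMN 1, iSDmut 1 or any iNkx2.2 library.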

How the results depend on the processing

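The embryonic fold changes of the 3 genes kept their sign under every alternative run, and only summing Gm4737 with Ahcy moved one far (0.26). Arg1 in betaSDmut islets kept its sign and lost its call with no filter (1.86) and with a replicate block (1.78). Its leave-one-out ranges were 1.53 to 2.25 in betaSDmut, 1.69 to 1.89 in betaKO, -0.26 to 0.47 for their difference, 0.62 to 0.78 in iNkx2.2, -0.10 to 0.50 for iSDmut against pMN and -0.80 to -0.19 for iSDmut against iNkx2.2, which passed with a replicate block (-0.54). Adjusted p of Arg1 in betaKO was under 0.05 in 8 of 10 alternatives. Within lane 2, Arg1 in iSDmut against pMN turned to -0.12 and Gm4737 in iSDmut against iNkx2.2 to 0.00. Genes called moved most: in embryos 2 with total library size, 25 by DESeq2, 0 with the title number as a block, 0 with sex as a covariate and 0 to 2 leaving out 1 library. In betaSDmut they were 2041 by DESeq2, 757 with the block, 2759 with sex and 37 to 2765 leaving out 1. In betaKO they were 127 with total library size, 770 by DESeq2, 372 without a filter, 115 with a mean of at least 1 CPM and 4 to 478. The difference of islet effects gave 653 by DESeq2 and 0 to 343. In progenitors DESeq2, the replicate block and leave-one-out gave 2271, 4629 and 412 to 1604 for iNkx2.2, 1382, 2626 and 171 to 471 for iSDmut against pMN (151 within lane 2), and 473, 528 and 1 to 467 for iSDmut against iNkx2.2 (145 without a filter, 243 within lane 2). The cause was not tested. The islet numbers did not pair the libraries (correlations -0.042 and -0.035 at 8 weeks, 0.020 and 0.020 at 4 weeks), and those of iSDmut with pMN were 0.414 and 0.064 and with iNkx2.2 0.388 and 0.151. Uncalled genes near 0 changed sign: Arg2 in embryos to 0.18 without both muscle-rich libraries, Irs2 to -0.04 with the block, and Odc1 in betaKO to -0.01 with total library size. Leave-one-out ranges in embryos were -0.28 to 0.15 for Arg2, -0.92 to 0.22 for Cd96, -0.26 to 0.10 for Col4a5, -0.85 to 0.20 for Irs1, -0.00 to 0.28 for Irs2, -0.09 to 0.07 for Med23, -0.35 to 0.04 for Nectin3, -0.26 to 0.07 for Nkx2-2 and -0.08 to 0.17 for Odc1. In betaKO they were -0.16 to 0.72 for Irs2, -0.47 to 0.05 for Nkx2-2 and -0.21 to 0.34 for Odc1, and in betaSDmut -0.21 to 0.01 for Nkx2-2. Depth limits Irs4 outside embryos.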
